A study of Arabidopsis thaliana with 24 samples.

Results

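Shoot genes of Arabidopsis thaliana whose transcript signal was low after 6 and 12 h in mannitol, and higher both before and after, were described across shoots and roots. The members were chosen by their measured signals in shoots. On the scale log2(signal + 8), averaged over the 2 arrays of a group, the value at 6 h and at 12 h each had to lie at least 1 below the values at 0.5 h and at 24 h. The highest mean signal of any shoot group had to be 50 or more, and the probe set had to name exactly 1 gene. Of 13513 such probe sets, which name 13355 genes, 18 met the rule. They stand for 17 genes, because AT5G54130 is read by 2 of them. All 17 are annotated as protein-coding, and they are spread over the chromosomes, with 5 on chromosome 1, 3 on chromosome 2, 6 on chromosome 3, 2 on chromosome 4 and 1 on chromosome 5.

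The annotation used here names 3 of the 17 genes and gives the other 14 by locus tag only. SWEET2 (AT3G14770) belongs to the SWEET family of membrane proteins, which carry sugars along their concentration gradient. HYH (AT3G17609) is a bZIP transcription factor related to HY5, which promotes the responses of seedlings to light. UGT74D1 (AT2G31750) is a UDP-glucosyl transferase, an enzyme class that attaches glucose to small molecules such as hormones. Mannitol is a sugar alcohol used to make water harder for plants to take up. In plants, transcripts of many genes also vary over the day under the influence of light, sugars and the circadian clock, so a course over time in a treatment can hold both.

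The arrays were made from shoots and roots of 16-day-old plants of the wild-type accession Col-0, all in 300 mM mannitol, after 0.5, 1, 3, 6, 12 and 24 h. Each of the 12 groups had 2 arrays, 24 in all. The plants had been in light for 3 h of a 16 h day when mannitol was given, so the samples at 0.5, 1, 3, 6 and 12 h were taken 3.5, 4, 6, 9 and 15 h into the light, and those at 24 h at 3 h into the light of the next day. Untreated plants were not analysed here, so time in mannitol and time of day cannot be told apart. In whole shoots and roots, fewer cells of a type and less RNA per cell cannot be told apart either. Nothing in the labels says whether replicates are separate cultures, and every p-value therefore measures only the spread between these samples.

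Values are signals in array units. Pearson's r between the 2 arrays of a group, over all probe sets, was 0.979 to 0.986, and the median signal of an array lay between 31.4 and 48.3. The green tissue markers RCA, PRK, SBPASE and PSAE-1, 4 of the 8 on their list, summed to between 8596 and 17661 on shoot arrays and to between 154 and 611 on root arrays. The root markers PYK10, EXPA7 and EXPA18, 3 of 7, summed to between 2760 and 3985 on root arrays and to between 223 and 1057 on shoot arrays.

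The most marked trough was that of AT2G41250. Its signals in shoots were 478 and 571 at 0.5 h, 211 and 222 at 1 h, 93.6 and 120 at 3 h, 50.8 and 29.4 at 6 h, 34.9 and 38.8 at 12 h, and 222 and 293 at 24 h. Both arrays at 6 h and both at 12 h lay far below all others, and the arrays at 24 h lay between those of 0.5 h and 3 h. In roots the 12 arrays ran from 106 to 162, so the same probe set was nearly level there.

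SWEET2, the sugar transporter, had shoot signals of 334 and 430 at 0.5 h, 162 and 204 at 1 h, 45.8 and 54.5 at 3 h, 21.6 and 22.6 at 6 h, 27.8 and 59.6 at 12 h, and 154 and 166 at 24 h. Its lowest arrays were those at 6 h, and the arrays at 12 h were unequal. In roots SWEET2 took another course, with signals of 58.5 and 59.5 at 0.5 h, 56.6 and 101 at 1 h, 290 and 281 at 3 h, 248 and 296 at 6 h, 249 and 248 at 12 h, and 408 and 375 at 24 h. All root arrays from 3 h on lay above all those at 0.5 and 1 h, while in shoots all arrays from 3 to 12 h lay below those at 0.5 and 1 h.

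HYH, the light signalling factor, was highest in shoots at 1 h. Its signals were 98.4 and 84.8 at 0.5 h, 154 and 150 at 1 h, 39.7 and 46.4 at 3 h, 20.8 and 14.7 at 6 h, 13.9 and 24.8 at 12 h, and 62.6 and 89.0 at 24 h. The arrays at 24 h overlapped with those at 0.5 h, and those at 6 and 12 h were the lowest. In roots HYH was lower at its maximum, at 21.7 to 49.5 over the 12 arrays. UGT74D1, the glucosyl transferase, had the shallowest course in shoots, with signals of 252 and 307 at 0.5 h, 207 and 192 at 1 h, 148 and 151 at 3 h, 134 and 118 at 6 h, 89.8 and 166 at 12 h, and 261 and 326 at 24 h. Its arrays at 24 h were back in the range of those at 0.5 h.

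AT1G69570 was entered as CDF5 on a list of morning-phased clock genes used here, although the gene table gives it by locus tag only. It was the dimmest member at its highest, with shoot signals of 89.6 and 77.1 at 0.5 h, 69.8 and 49.3 at 1 h, 24.7 and 31.5 at 3 h, 19.4 and 11.9 at 6 h, 21.3 and 12.3 at 12 h, and 39.3 and 60.01 at 24 h. It was near its lowest at 6 and 12 h and stood below its first level at 24 h. Its root signals were 19.7 and 29.2 at 0.5 h, 40.6 and 28.4 at 1 h, 35.8 and 42.1 at 3 h, 40.02 and 42.7 at 6 h, 22.1 and 24.5 at 12 h, and 77.8 and 83.3 at 24 h, and the arrays at 24 h were the highest of the root series.

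Among the genes known by locus tag only, 3 stood higher in shoots at 24 h than at 0.5 h on all arrays. AT1G64500 had signals of 271 and 276 at 0.5 h, 323 and 402 at 1 h, 137 and 158 at 3 h, 61.6 and 81.8 at 6 h, 91.3 and 124 at 12 h, and 700 and 656 at 24 h. For AT3G56290 they were 648 and 565 at 0.5 h, 544 and 668 at 1 h, 192 and 289 at 3 h, 113 and 165 at 6 h, 176 and 212 at 12 h, and 740 and 712 at 24 h. AT3G27350 had 149 and 163 at 0.5 h, 145 and 187 at 1 h, 97.2 and 95.4 at 3 h, 50.6 and 51.0 at 6 h, 54.6 and 62.7 at 12 h, and 191 and 237 at 24 h. In all 3 the lowest group was 6 h and the arrays at 12 h were already above those at 6 h.

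A further set was at its lowest at 12 h. AT3G01060 had 563 and 588 at 0.5 h, 546 and 695 at 1 h, 378 and 451 at 3 h, 114 and 153 at 6 h, 34.1 and 37.8 at 12 h, and 418 and 422 at 24 h. AT1G55960 had 1019 and 1063 at 0.5 h, 426 and 769 at 1 h, 185 and 279 at 3 h, 106 and 112 at 6 h, 60.9 and 70.8 at 12 h, and 223 and 276 at 24 h. AT1G19450 had 811 and 823 at 0.5 h, 815 and 867 at 1 h, 156 and 322 at 3 h, 92.8 and 73.4 at 6 h, 49.3 and 78.2 at 12 h, and 161 and 205 at 24 h. At 24 h AT3G01060 stood closer to its first level than AT1G55960 and AT1G19450, which were far below theirs. AT1G75180 had 163 and 207 at 0.5 h, 213 and 200 at 1 h, 110 and 111 at 3 h, 56.6 and 44.7 at 6 h, 31.5 and 35.5 at 12 h, and 117 and 106 at 24 h, and AT3G05900 had 191 and 198 at 0.5 h, 121 and 112 at 1 h, 29.6 and 53.3 at 3 h, 30.6 and 28.5 at 6 h, 29.2 and 20.9 at 12 h, and 70.9 and 71.1 at 24 h. In these also 12 h was the lowest group, and the arrays at 24 h lay below those at 0.5 h.

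In other members the signal was first higher at 1 h than at 0.5 h. The brighter probe set of AT5G54130 had 162 and 181 at 0.5 h, 293 and 434 at 1 h, 29.1 and 42.3 at 3 h, 11.6 and 11.4 at 6 h, 7.41 and 21.8 at 12 h, and 41.7 and 74.8 at 24 h, and the dimmer one had 78.4 and 92.6 at 0.5 h, 141 and 201 at 1 h, 29.6 and 23.0 at 3 h, 2.31 and 10.7 at 6 h, 12.8 and 9.47 at 12 h, and 27.2 and 33.3 at 24 h. Both probe sets were highest at 1 h and lowest at 6 h, and the ratio of the mean signals of the brighter to the dimmer was 1.32 to 2.13 over the 12 groups. AT4G27280, the brightest member, had 148 and 817 at 0.5 h, 1478 and 772 at 1 h, 157 and 251 at 3 h, 79.3 and 87.8 at 6 h, 81.0 and 120 at 12 h, and 267 and 250 at 24 h. Its replicates at 0.5 h differed widely, and without the second of them it no longer met the rule.

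The remaining members were highest at 0.5 h. AT2G04795 had shoot signals of 224 and 216 at 0.5 h, 119 and 111 at 1 h, 54.2 and 42.1 at 3 h, 24.1 and 14.3 at 6 h, 17.6 and 46.0 at 12 h, and 50.5 and 117 at 24 h, with unequal arrays at 12 h and at 24 h. AT4G33420 had 116 and 137 at 0.5 h, 93.0 and 63.8 at 1 h, 28.9 and 36.8 at 3 h, 26.3 and 16.4 at 6 h, 20.3 and 22.6 at 12 h, and 78.8 and 83.2 at 24 h. In roots it was far brighter, from 381 to 662, so that all 12 root arrays lay above all 12 shoot arrays, which held for no other member.

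**Figure D1:**
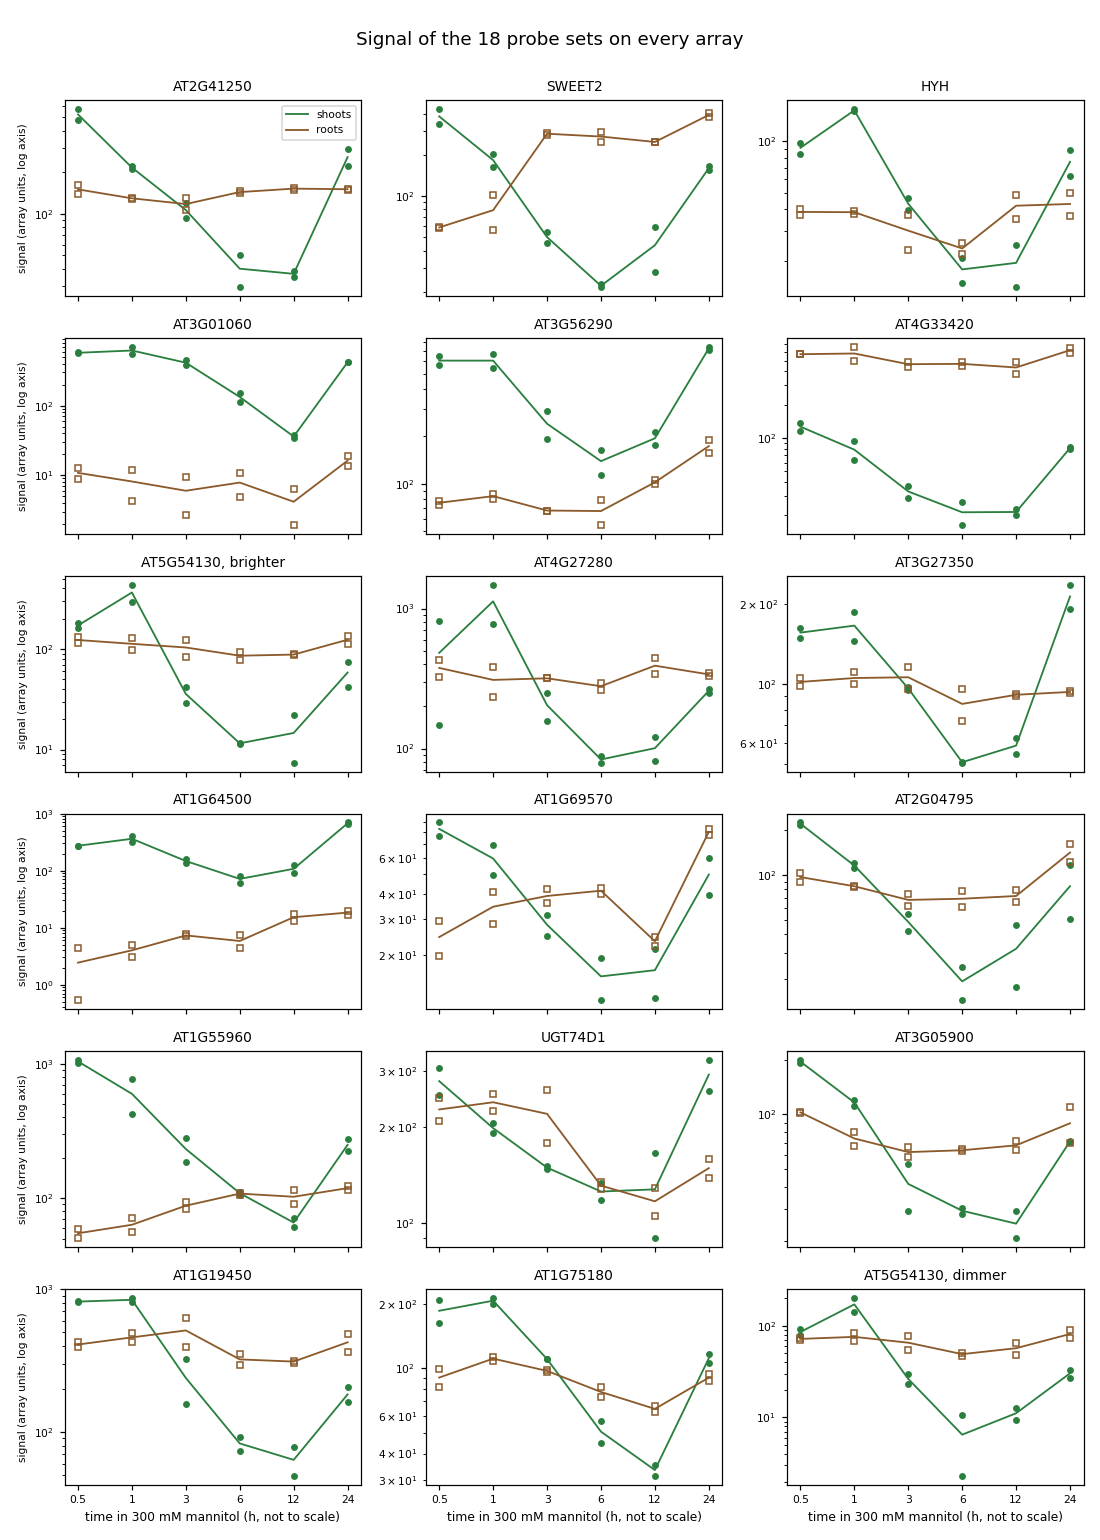
Signal of each of the 18 probe sets in array units (log axis) against hours in mannitol (not to scale). Filled green circles are the 12 shoot arrays and open brown squares the 12 root arrays, 2 per time, and lines join the group means of the signals. In shoots all 18 dip at 6 and 12 h, which the rule fixed, and in roots 12 of the 18 stay within a range of 1 on the log2 scale.

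Seen together, 11 of the 18 probe sets had their lowest shoot mean of log2(signal + 8) at 6 h and 7 at 12 h. The highest mean was at 0.5 h in 7, at 1 h in 7 and at 24 h in 4. For all 18, every array at 6 and 12 h lay below every array at 0.5 and 24 h. The difference of 1 h from 0.5 h ran from -1.24 for AT2G41250 to 1.59 for AT4G27280 on the log2 scale, with 9 below 0 and 9 above. At 24 h, 14 stood below their level at 0.5 h and 4 above. The median difference was -0.69, against -0.13 over all probe sets that name 1 gene. The arrays of the 2 times were fully apart in 12 of the 14 lower members, which was not counted over all probe sets. These shoot values chose the members and are given as a description, with no test.

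The limit of 1 fell within a continuous run of values. The smallest of the 4 differences that the rule asks for was 1.08 for AT3G05900, 1.07 for AT1G19450, 1.03 for AT1G75180 and 1.0 for the dimmer probe set of AT5G54130. Just outside, it was 0.98 for AT4G26860, 0.90 for AT4G15430, 0.88 for AT1G66130 and 0.86 for AT1G52100. When each of the 8 shoot arrays at 0.5, 6, 12 and 24 h was left out in turn, 10 of the 18 met the rule every time.

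How far the members had declined by 3 h was tested on the arrays at 1 and 3 h, which had no part in the differences of the rule. All 18 met the signal minimum at 0.5 h alone, where the lowest mean signal was 83.3 for AT1G69570. Between 1 and 3 h, 16 of the 18 probe sets, in 15 of 17 genes, fell in shoots, and none rose. Over all 16817 probe sets tested, 16.6% were lower and 13.4% higher in the same comparison, in limma at a Benjamini-Hochberg adjusted p under 0.05. The median log2 change of the members was -1.27, against -0.06 over all probe sets tested. Since the rule requires a drop between 0.5 and 6 h, the direction follows in part from it, and the comparison shows how much of it lay between 1 and 3 h. In all 18 both arrays at 3 h lay below both at 1 h, a description that was not counted over all probe sets.

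AT5G54130 changed most, by -3.08 ± 0.29 (SE, n = 2 per group) on the log2 scale for the brighter probe set and -2.37 ± 0.25 for the dimmer, with limma adjusted p of 7.51e-07 and 2.1e-06. The change was -2.38 ± 0.49 in AT4G27280, -1.87 ± 0.27 in AT1G19450, -1.71 ± 0.24 in SWEET2 and -1.65 ± 0.23 in HYH. For SWEET2 that is 3.28-fold lower on signal + 8 and for HYH 3.14-fold lower. The smallest changes past the threshold were -0.73 ± 0.15 in AT3G27350 and -0.86 ± 0.14 in AT1G75180. AT3G01060, at -0.57 ± 0.27 with a limma adjusted p of 0.122, and UGT74D1, at -0.39 ± 0.22 with 0.192, did not pass. With a pseudocount of 32, AT3G01060 did pass (-0.54, limma adjusted p = 0.00886). So it did in a fit of the shoot arrays alone (limma adjusted p = 0.029). AT3G01060 had its lowest signals late, at 12 h, and UGT74D1 the shallowest course. A link of either course to these results was not tested.

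The calls for AT1G69570 and AT2G04795 each depended on single arrays. AT1G69570 changed by -0.89 ± 0.24 (limma adjusted p = 0.00796). It no longer passed without the first replicate at 1 h, at -0.67, or without the first at 3 h, at -0.76. AT2G04795 changed by -1.14 ± 0.32 (limma adjusted p = 0.0108). It no longer passed without the first replicate at 1 h, at -1.10, without the second at 3 h, at -0.98, or in a fit of the shoot arrays alone.

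**Figure D2:**
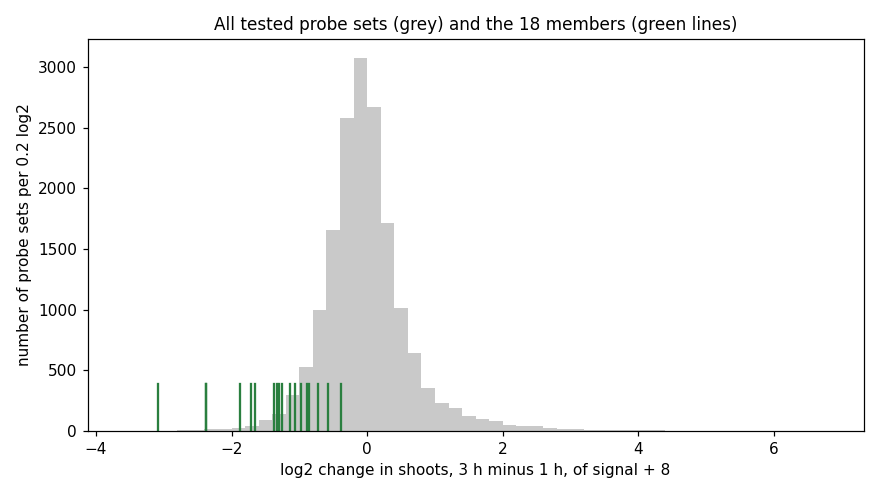
Number of probe sets (vertical axis) by log2 change in shoots from 1 to 3 h (horizontal axis), for all 16817 tested, with the 18 members as green lines. The members lie between -3.08 and -0.39, and the median of all probe sets is -0.06.

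Of all probe sets tested, 5% lay below -0.90 in this comparison, and so did most members. Markers of other cell types were read over the same interval. None of the 4 green tissue markers, of the 3 root markers, and not the guard cell gene FAMA, the single one of 5 on its list, passed the test in shoots. The summed green signal was 16326 and 16531 at 1 h and 16459 and 15373 at 3 h. Over the whole course it also moved, from 15547 and 17661 at 0.5 h to 13962 and 11361 at 6 h, 8615 and 8596 at 12 h and 9614 and 11290 at 24 h. The summed root marker signal in shoots, nearly all of it PYK10, was 518 and 456 at 1 h and 368 and 415 at 3 h. Over the whole course it was highest at 0.5 h, at 1057 and 903, and was 334 and 250 at 6 h, 223 and 328 at 12 h and 367 and 366 at 24 h. The first-design actin control, whose ratio of 3' to 5' signal reflects RNA quality, averaged 7.86 at 1 h and 10.3 at 3 h in shoots, and ran from 6.77 at 0.5 h to 16.7 at 24 h. Its other design stayed between 2.33 and 2.67. The same ratio of the first-design GAPDH control averaged 1.43 at 1 h and at 3 h in shoots. It was lowest at 0.5 h, at 1.35, and highest at 6 h, at 1.73. The other GAPDH design stayed between 1.04 and 1.24 in shoots. The part of the green markers, of PYK10 and of the actin and GAPDH ratios in the result was not tested.

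In roots the same interval gave a different picture. Between 1 and 3 h, 0 of the 18 probe sets fell and 1 rose in limma, where 5.16% of all probe sets tested were lower and 4.8% higher. Only SWEET2 had an unadjusted p under 0.05. SWEET2 rose by 1.81 ± 0.24 on the log2 scale, 3.49-fold on signal + 8, with a limma adjusted p of 0.000219. The other 17 lay between -0.31 for HYH and 0.43 for AT1G55960, and the median of the 18 was -0.14. Of the root markers, EXPA7, a gene of root hair cells, fell over this interval in roots (-1.60 ± 0.47, limma adjusted p = 0.04), and PYK10 and EXPA18 did not pass. None of the 4 green tissue markers passed. The part of root hair cells in the result was not tested.

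The difference between the tissues was tested itself, as the shoot change minus the root change from 1 to 3 h. It was below 0 in all 18 and past the threshold in 14 probe sets of 13 genes. Over all probe sets tested, 7.25% were lower and 7.51% higher. The members were chosen for a drop in shoots, so a difference below 0 follows in part from the rule. The percentages over all probe sets carry no such choice, so they are not an independent yardstick for the count of members. For SWEET2 the difference was -3.52 ± 0.34, the shoot and root changes being of opposite sign. For the 2 probe sets of AT5G54130 it was -2.95 ± 0.41 and -2.17 ± 0.35, and for AT4G27280 it was -2.46 ± 0.70. The smallest differences that passed were -0.68 ± 0.19 in AT1G75180, -0.73 ± 0.21 in AT3G27350 and -0.84 ± 0.26 in AT2G41250. AT4G33420, at -0.76 ± 0.27 with a limma adjusted p of 0.0647, AT2G04795, AT3G01060 and UGT74D1 did not pass.

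Many of these 14 calls rest on the full set of arrays. Without 1 of the 8 arrays at a time, between 7 and 12 of the members passed, with 7 without the first shoot replicate at 3 h, 8 without the first root replicate at 3 h and 9 without the second root replicate at 1 h. The calls that held each time were those of SWEET2, AT1G19450, AT1G55960, AT1G64500 and both probe sets of AT5G54130.

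**Figure D3:**
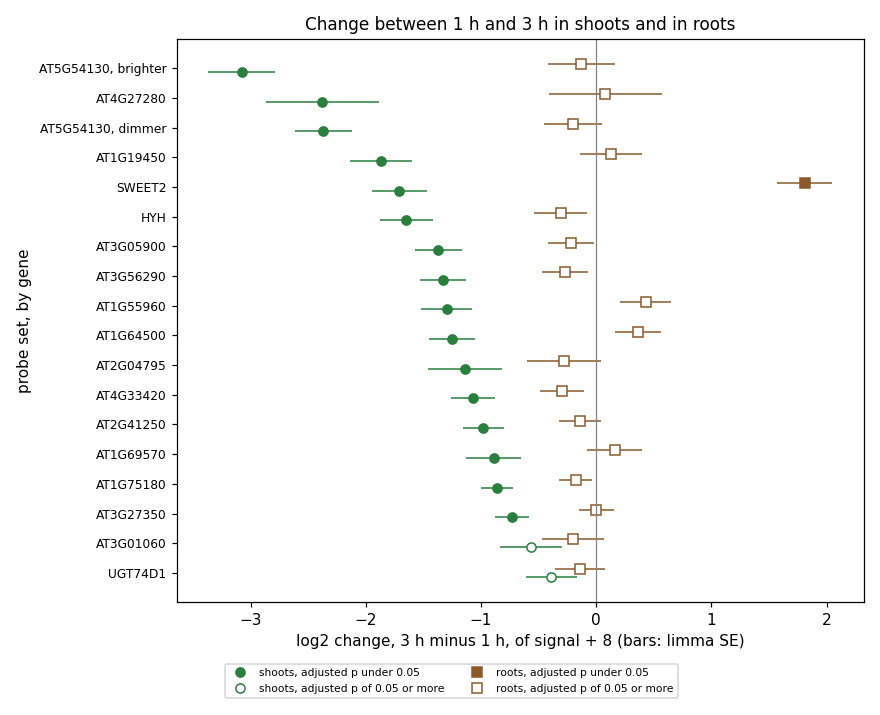
Log2 change from 1 to 3 h (horizontal axis) of each probe set (vertical axis), in shoots (green circles) and roots (brown squares). Bars are limma standard errors, and filled symbols have an adjusted p under 0.05. The shoot values run from -3.08 to -0.39, and in roots SWEET2, at 1.81, is the single filled symbol.

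The plot of changes from 1 to 3 h shows shoot values left of 0 throughout and root values around 0, with SWEET2 alone far to the right. Most members had a clear signal in roots. The highest root mean reached 50 or more in 15 of the 18. Exceptions were AT3G01060, at 1.92 to 18.9 on root arrays, AT1G64500, at 0.530 to 19.9, and HYH. In AT3G01060 and AT1G64500 all shoot arrays lay above all root arrays. The range of the 6 group means on the log2 scale was 1.2 to 4.22 in shoots, with a median of 3.10, and 0.31 to 2.57 in roots, with a median of 0.70. The rule requires a shoot range of at least 1 and asks nothing of roots, so the wider shoot range follows in part from it. The root range over all probe sets was not computed.

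Roots had no part in the rule, so the shape of the trough could be tested there, as the mean of 6 and 12 h against the mean of 0.5 and 24 h. In limma 7 of the 18 probe sets were lower at 6 and 12 h and 1 was higher, against 10.9% lower and 8.94% higher over all probe sets tested. The differences were far smaller than those that chose the members in shoots. Their median was -0.39, against -0.04 over all probe sets tested, and 15 of 18 lay below 0. In 3 of the 7 all arrays were apart, which was not counted over all probe sets. UGT74D1 was lower by 0.54 on the log2 scale (-0.54 ± 0.15, limma adjusted p = 0.0194). Its root signals were 209 and 247 at 0.5 h, 225 and 256 at 1 h, 263 and 179 at 3 h, 135 and 128 at 6 h, 129 and 105 at 12 h, and 139 and 159 at 24 h, so the arrays at 24 h stayed below those at 0.5 h. AT2G04795 differed by -0.67 ± 0.22 and AT4G33420 by -0.40 ± 0.13.

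The other calls for lower root signal at 6 and 12 h were AT3G01060 (-0.64 ± 0.19), AT3G05900 (-0.48 ± 0.14), AT3G56290 (-0.45 ± 0.14) and AT1G75180 (-0.32 ± 0.10), with overlapping arrays. AT3G01060 had root signals under 19 throughout, and its difference was -1.04 and -0.26 with pseudocounts of 2 and 32. SWEET2 went the other way, by 0.71 ± 0.17 (limma adjusted p = 0.00831), its level at 0.5 h being low and that at 24 h high. The probe sets of AT5G54130, at -0.47 ± 0.20 and -0.48 ± 0.17, did not pass. The count of lower members was fragile. It was between 0 and 3 without any single one of the 8 root arrays, and 2 after scaling each array to the same median. The call for SWEET2 held in each of these.

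Root markers moved in the same contrast. EXPA7 differed by -1.32 ± 0.33 and EXPA18 by -1.47 ± 0.30, both known from root hair cells, and both passed in limma, while PYK10, at -0.03 ± 0.12, did not. The guard cell gene FAMA, at -0.43 ± 0.14, passed as well. Its signal was dim on root arrays, at 8.23 to 21.0, against 32 to 68.7 on shoot arrays. The root values lay below the lowest array median, 31.4. None of the 4 green tissue markers passed. The part of root hair cells and of the dim FAMA signal in the root differences was not tested.

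At nearly the same hour of the light period, 24 h was compared with 0.5 h in roots. There 5 of the 18 members rose and 1 fell in limma, where 17.1% of all probe sets tested were higher and 23.8% lower. SWEET2 rose by 2.57 ± 0.24 on the log2 scale, 5.96-fold on signal + 8 (limma adjusted p = 7.22e-07). AT1G69570 rose by 1.46 ± 0.24, AT1G64500 by 1.36 ± 0.20, AT3G56290 by 1.11 ± 0.20 and AT1G55960 by 1.02 ± 0.22. AT1G64500 had root signals of 0.530 to 19.9 over the 12 arrays, and its change was 2.34 and 0.55 with pseudocounts of 2 and 32. UGT74D1 changed by -0.59 ± 0.22 (limma adjusted p = 0.0404), a call that was lost without any 1 of the 4 arrays.

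The rises in roots held without each of the 4 arrays in turn. In shoots, SWEET2, AT1G69570 and AT1G55960 stood lower at 24 h than at 0.5 h on all arrays, so these 3 genes ended on opposite sides of their first level in the 2 tissues, the shoot values being a description. AT1G64500 and AT3G56290 stood higher at 24 h in both tissues, although the root signals of AT1G64500 were dim throughout, at 0.530 to 19.9. Green tissue markers were higher in the same root arrays. All 4 passed, and their summed signal was 154 and 161 at 0.5 h and 611 and 447 at 24 h. Their part in the root rises was not tested.

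**Figure D4:**
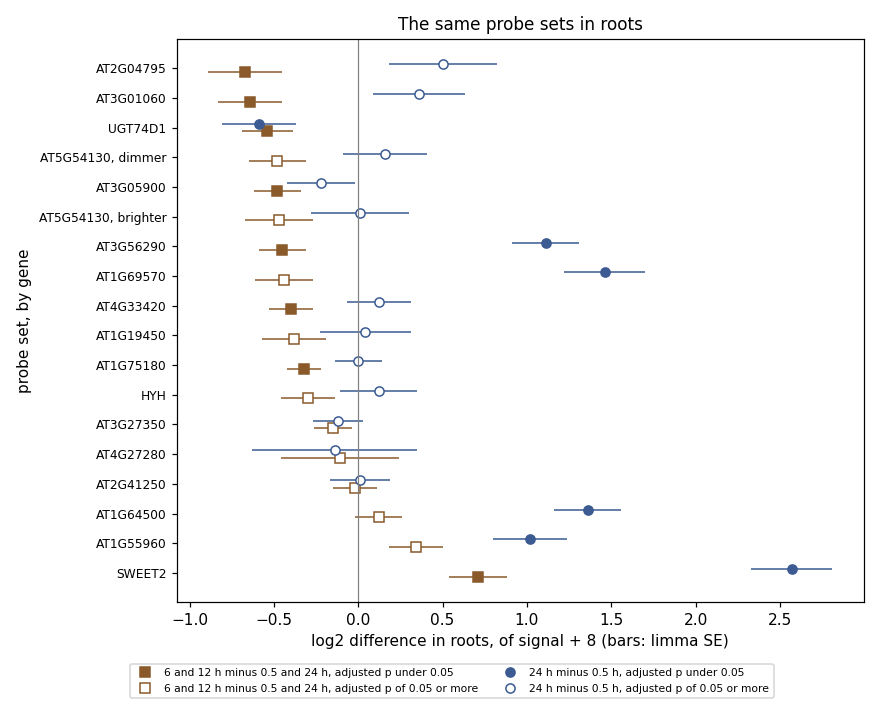
Log2 differences in roots (horizontal axis) of each probe set (vertical axis): the mean of 6 and 12 h minus the mean of 0.5 and 24 h (brown squares), and 24 h minus 0.5 h (blue circles). Bars are limma standard errors, and filled symbols have an adjusted p under 0.05. The brown values run from -0.67 to 0.71, and the filled blue values on the right run from 1.02 to 2.57.

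In the plot of root differences, most brown squares lie slightly left of 0, and 5 blue circles lie well to the right. UGT74D1 is the single filled blue circle on the left, at -0.59, and the unfilled ones run from -0.22 to 0.50. Of the 18 probe sets, 11 had their highest root mean at 24 h, which was not counted over all probe sets.

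Other genes were read from 13 lists of 227 genes, on the clock, light, sugar, starch, pigments and light harvesting, nutrients, growth hormones, touch and jasmonate, cold and cytokinin. The array's annotation names 29 of them, HYH and AT1G69570 included, so a list result covers few genes. In shoots from 1 to 3 h, 10 of the 29 fell and 11 rose in limma, against 16.6% lower and 13.4% higher over all probe sets tested, with a median of -0.04. The 10 include HYH and AT1G69570, which the rule chose for a drop in shoots. The lists were also drawn up with earlier results of these data known. On the list of morning-phased clock genes, the other named gene, RVE6, a MYB-like factor, rose by 0.68 ± 0.20. GIGANTEA (GI), a clock-associated protein of the afternoon, rose by 1.38 ± 0.13. HYH was the single named gene of its light signalling list. Of 2 named genes on the list for sugar starvation and darkness, EXO, a growth-related cell wall protein, fell (-0.94 ± 0.31), and AKINBETA1, a subunit of the SnRK1 kinase complex, did not pass (-0.59 ± 0.28).

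All 4 named starch genes rose in shoots, among them APL3 (1.80 ± 0.31) and APL4 (1.31 ± 0.22), large subunits of the enzyme that makes ADP-glucose. All 3 named cold-regulated genes rose, COR15A by 3.65 ± 0.51, COR15B by 3.93 ± 0.36 and COR47 by 2.68 ± 0.25. Both named cytokinin response regulators fell, with -1.26 ± 0.25 in ARR15 and -1.51 ± 0.28 in ARR16. Both named growth hormone genes, the auxin-responsive IAA29 and GH3.3, also fell. Of 3 touch, wound and jasmonate genes, the zinc finger factor ZAT10 fell (-1.40 ± 0.51) and WRKY6 rose (1.17 ± 0.43). Neither of 2 named iron genes passed, and no gene of nitrogen and sulfur assimilation was named. None of the 3 light-harvesting genes passed, and of 4 genes of pigment synthesis 2 fell and 1 rose. In roots, in the contrast of 6 and 12 h with 0.5 and 24 h, 0 of the 29 were lower and 6 higher, against 10.9% lower and 8.94% higher over all probe sets tested, with a median of 0.01.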

How the data were processed

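The values analysed are linear signal intensities per probe set on ATH1 arrays, as the authors deposited them; they were computed with MAS5 per the submitters' processing notes, the version is not given in the sources used here. For every array the mean signal, trimmed by 2% at each end, was 100.01. Log2(signal + 8) was taken, which understates changes of dim genes. A probe set was tested if it exceeded the 40th percentile of its array on at least 2 arrays: 16817 passed, all 18 members among them, and 5929 did not. Limma 3.58.1 in R 4.3.3 was fitted to all 24 arrays with 12 group means and a variance trend (12 residual and 5.29 prior degrees of freedom), with Benjamini-Hochberg adjustment over all probe sets tested and a threshold of 0.05. The fit was tested on simulated arrays, with known changes put only into probe sets brighter in shoots at 1 h than most members. Of 22746 probe sets without controls, 13513 named 1 gene, 503 several and 8730 had no name in the annotation used; 13436 matched the TAIR10.1 gene table. No reference sequence of the members was used here.

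The members and gene lists were chosen with earlier results of these data known. Any member could be named. The rule asked for array values of those with the deepest troughs, highest signals, largest and smallest tested changes, a place on a list, or a place next to the limit; shoot values of all 18 are given. Other genes come from the lists or stand just outside the limit. Alternatives were other pseudocounts, scaling, filters, a fit per tissue, a replicate block, other limits in the rule, and each array left out in turn.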

Additional observations from a re-analysis of the deposited data

Results flagged for a closer look

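The change from 1 to 3 h differed between shoots and roots, by limma's test of the difference itself, in 14 of the 18 probe sets. Over all probe sets tested, 7.25% were lower and 7.51% higher. Of the 14 calls, 6 held without each array in turn. The members were chosen for a drop in shoots, so the sign of the difference follows in part from the rule. The shoot change minus the root change, on the log2 scale, was -3.52 for SWEET2, where the tissues went opposite ways. For the 2 probe sets of AT5G54130 it was -2.95 (the brighter) and -2.17 (the dimmer), and for AT4G27280 it was -2.46. It was -1.99 for AT1G19450, -1.73 for AT1G55960, -1.60 for AT1G64500 and -1.34 for HYH. For AT3G05900 it was -1.15, for AT3G56290 and AT1G69570 -1.05 each, and for AT2G41250 it was -0.84. The smallest were -0.73 for AT3G27350 and -0.68 for AT1G75180. In these probe sets, SWEET2 aside, no root change passed the test.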

How the results depend on the processing

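No direction of a called value turned under the alternatives run. The number of members, 18, was 9 with a pseudocount of 32, 7 with a limit of 1.5, 27 with a limit of 0.8, and 15 to 24 without each array. In shoots from 1 to 3 h, 14 to 16 members were lower without each array and 16 or 17 in the other settings. Calls over all probe sets were 633 to 985 without each array in roots from 1 to 3 h (1675 with all), 1417 to 1975 for the tissue difference (2482), 3373 to 3821 in shoots from 1 to 3 h (5055), 2114 to 2780 for roots at 6 and 12 h (3344), and 4611 to 5319 for roots at 24 h (6878). Fewer arrays enter these fits. Members lower in the tissue difference numbered 7 to 12 without each array (14 with all). Members lower in roots at 6 and 12 h numbered 0 to 3 without each array and 2 after median scaling (7), and 2 were higher in a fit of the root arrays alone (1). The member lower in roots at 24 h (1) became 0 after median scaling, without the filter, and without each array. The cause of these shifts was not tested. Without 1 array, calls of single members were lost most often in roots at 6 and 12 h and in the tissue difference. Under the other settings, losses were counted per member and setting, so 1 member can count several times. They numbered 11 in roots at 6 and 12 h and 2 in roots at 24 h. For the tissue difference they numbered 2, and for shoots from 1 to 3 h 1. Calls gained, counted likewise, numbered 7 in roots at 6 and 12 h and 1 in roots at 24 h. In shoots from 1 to 3 h they numbered 2.

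Replicates of different groups share numbers, but their deviations correlated at -0.17 to 0.35 over the 66 pairs of groups, 13 of them over 0.1, so the numbers were not taken to pair samples. With a replicate block, 16 members were lower in shoots from 1 to 3 h, 14 in the tissue difference and 8 in roots at 6 and 12 h, and the other member counts were as without it. Over all 16817 probe sets tested, calls in either direction in these comparisons then numbered 5060, 2502 and 3349. Having 2 arrays a group limits the precision, and so do the dim root signals of AT3G01060 and AT1G64500.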
